A study of Homo sapiens with 6 samples.

Results

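The nuclear-encoded subunits of the respiratory chain were followed in THP-1 cells treated with mebendazole. THP-1 is a human monocytic leukaemia line, and mebendazole is an anthelmintic drug that binds beta tubulin. Cells received 10 uM mebendazole for 6 h, or DMSO, the vehicle, for the same 6 h, and RNA was sequenced from 3 libraries per group (mebendazole replicates 1 to 3 and DMSO replicates 1 to 3). The labels give each library a pair number that joins one library of each group, and they do not say whether pairs were separate cultures, so the spread behind every p-value may be technical. Members were the rows of the count table whose symbols begin with NDUFA, NDUFB, NDUFC, NDUFS, NDUFV, SDHA to SDHD, UQCR, ATP5 or COX followed by 4, 5, 6, 7 or 8. Of 105 such rows, 5 pseudogenes and 11 assembly factors were left out, with the pseudogene NDUFAF4P1, which had no read, counted among the assembly factors. A further 4 rows matched by symbol but encode no subunit, namely ATP5S, NDUFB2-AS1 and the readthrough rows NDUFC2-KCTD14 and ATP5J2-PTCD1. This left 85 subunit genes of 23710 genes in the table, and 78 of them were tested, since 7 had too few reads in both groups.

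The respiratory chain passes electrons from NADH and succinate to oxygen through complexes I to IV in the inner mitochondrial membrane, and ATP synthase, complex V, uses the resulting proton gradient to make ATP. Most subunits are encoded in the nucleus and imported, and the rest come from mitochondrial DNA. Expression of the nuclear subunits is classically tied to the transcription factors NRF1 and GABP and to coactivators of the PGC-1 family. The table has no row for a mitochondrially encoded subunit, so the mitochondrial side of the chain was not analysed here.

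Library totals ranged from 13420558 to 15727667 counts. Of 10 monocyte markers, all were tested, and their summed level lay between 2016 and 2066 CPM with mebendazole and between 2021 and 2148 CPM in DMSO (CPM, counts scaled to a common library size after TMM correction for composition). Of the 10, 6 were called lower and 2 higher, where 82.3% of all tested genes were called in either direction. Against a minimum change of 1.2-fold, 6 were lower and 1 higher, where 33.0% and 32.2% of all tested genes were. The median log2 fold change of the list was -0.52. The similar sums thus do not mean steady markers, since the rise of SPI1, an abundant one, offset falls of others. CD33 averaged 26.3 CPM with mebendazole and 89.1 CPM in DMSO, and SPI1 averaged 638 CPM with mebendazole and 323 CPM in DMSO. CD68 averaged 443 CPM with mebendazole and 412 CPM in DMSO, and MPO averaged 2.09 CPM with mebendazole and 2.74 CPM in DMSO. Of 13 markers of other cell types, 4 were tested and 2 were called higher, PECAM1 and NCAM1. The list summed to between 133 and 153 CPM with mebendazole and between 92.7 and 103 CPM in DMSO, most of it PECAM1 (a mean of 135 CPM with mebendazole and 94.1 CPM in DMSO), which monocytes also express. COL1A2 had no read, CD3D and CD3E had none with mebendazole, and the part of these markers in the results was not tested.

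Subunit mRNAs were mostly lower with mebendazole. Of the 78 tested, 63 were called lower and 4 higher, and 11 did not pass (edgeR quasi-likelihood test, Benjamini-Hochberg adjusted p under 0.05 over all 13591 genes tested). Of all tested genes 82.3% were called in either direction, 41.7% lower and 40.6% higher, so the subunits' share of lower calls, 80.8%, lay well above that of the table, and their share of higher calls, 5.13%, well below it. The median log2 fold change was -0.39 for the subunits, against -0.03 for all genes tested. The changes were moderate: the quartiles of the subunits were -0.60 and -0.18, and the extremes were -1.33 and 0.80. Against a minimum change of 1.2-fold, 46 subunits were lower and 2 higher, where 65.2% of all genes passed, 33.0% lower and 32.2% higher. In 60 subunits every mebendazole library lay below every DMSO library, where 41.9% of all genes did, and in 3 every mebendazole library lay above, where 40.5% did. With plain library totals in place of TMM, 74 subunits were called lower and 2 higher, and 53.9% of all genes were called lower and 30.8% higher, because that scaling moves every log2 fold change by about -0.24.

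**Figure D1:**
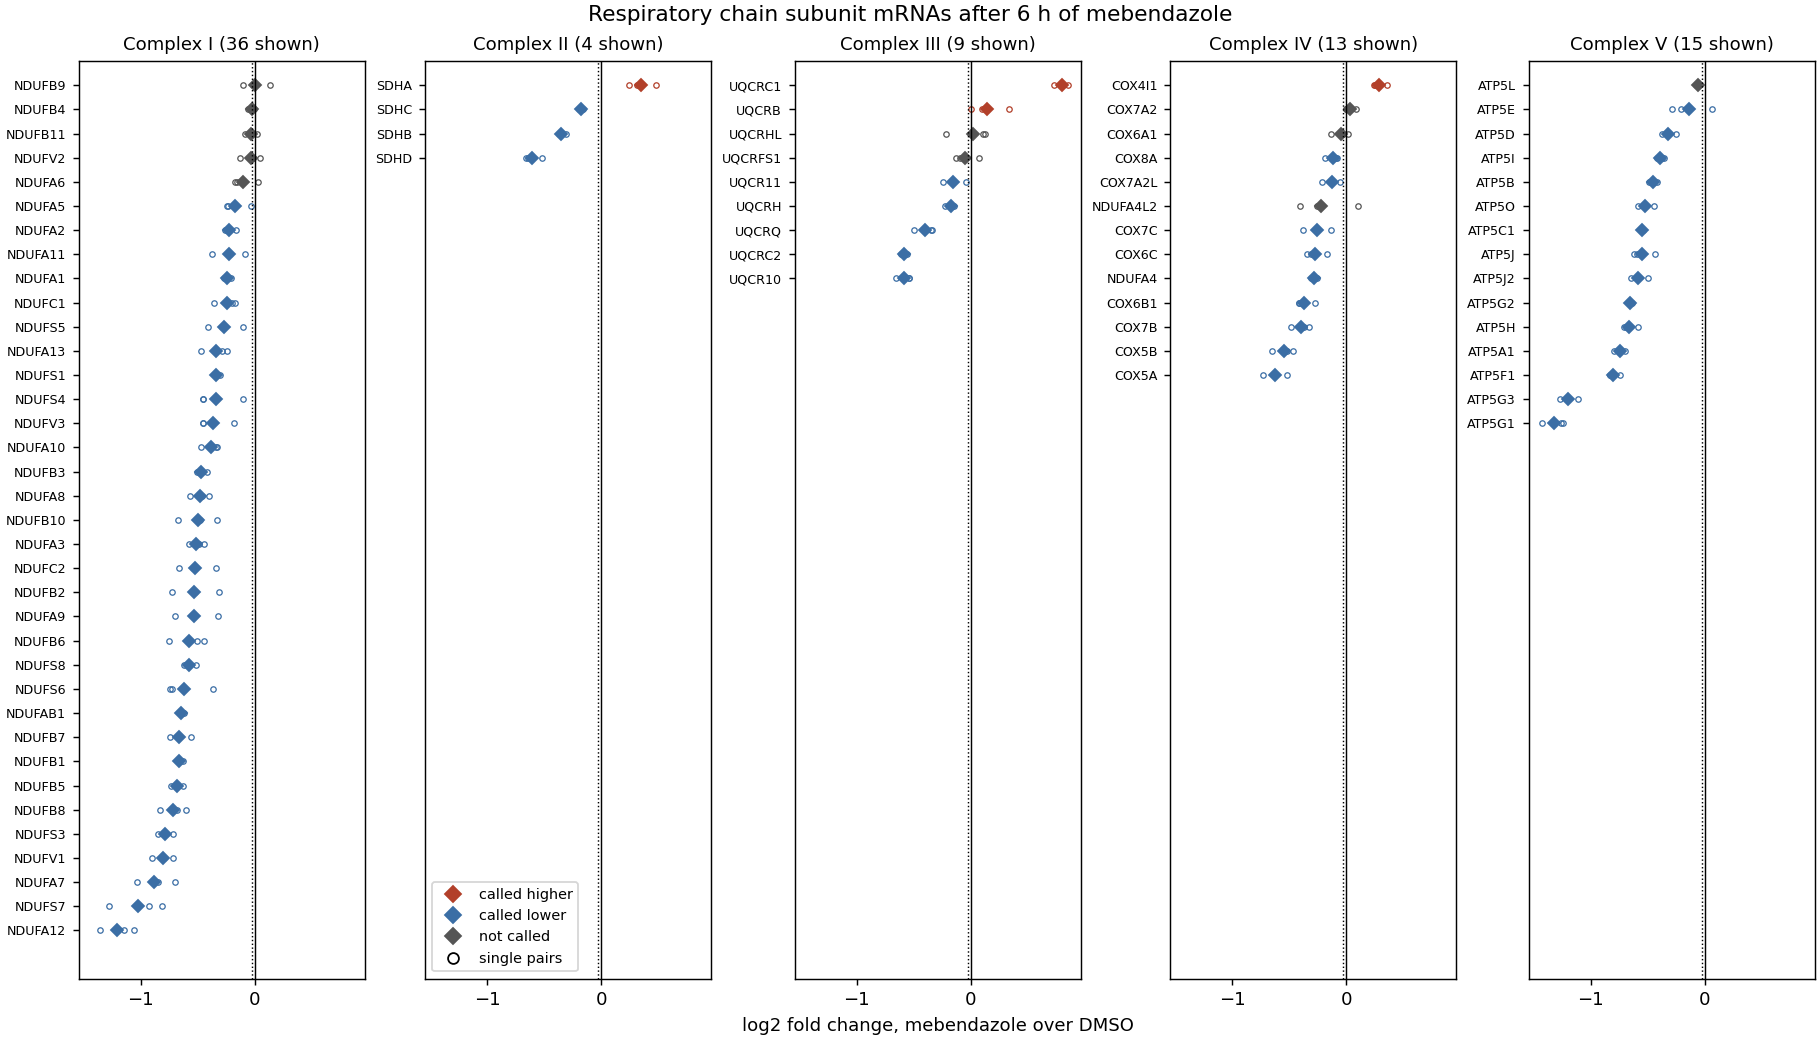
Log2 fold change (mebendazole over DMSO) of tested subunits by complex (1 complex I subunit is not shown), with diamonds for the fitted value, open circles for the single pairs, a solid line at 0 and a dotted line at the median of all genes tested (-0.03). Complexes I and V hold no red diamond (called higher), and UQCRC1 stands farthest to the right at 0.80.

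As a share of the library total, the subunits were also lower with mebendazole. The 85 subunit genes took 0.603% ± 0.0124 of all counts with mebendazole and 0.910% ± 0.0216 in DMSO (SD, n = 3 each), and the libraries ranged from 0.589% to 0.611% and from 0.894% to 0.934%. On the TMM scale the summed level of complex V was 2026, 1930 and 2025 CPM with mebendazole and 2977, 2938 and 3087 CPM in DMSO, a ratio of 0.665. Complex I summed to 1789, 1708 and 1774 CPM with mebendazole and to 2299, 2271 and 2412 CPM in DMSO, a ratio of 0.755. Both sums were separated between the groups with no overlap. Complex II (ratio 0.858) and complex IV (ratio 0.899) were also lower in every mebendazole library than in any DMSO library. Complex III summed to 1132, 1083 and 1148 CPM with mebendazole and to 1097, 1125 and 1176 CPM in DMSO, and its groups overlapped. That sum of 9 rows leaves out CYC1, a complex III subunit that the symbol rule does not reach. CYC1 was at 126, 119 and 122 CPM with mebendazole and at 193, 177 and 193 CPM in DMSO. The overlap therefore holds only for the rows summed. With library totals the ratio of every complex was lower, at 0.835 for complex III and 0.561 for complex V. In these bulk libraries fewer cells with a transcript and less of it per cell cannot be told apart.

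**Figure D2:**
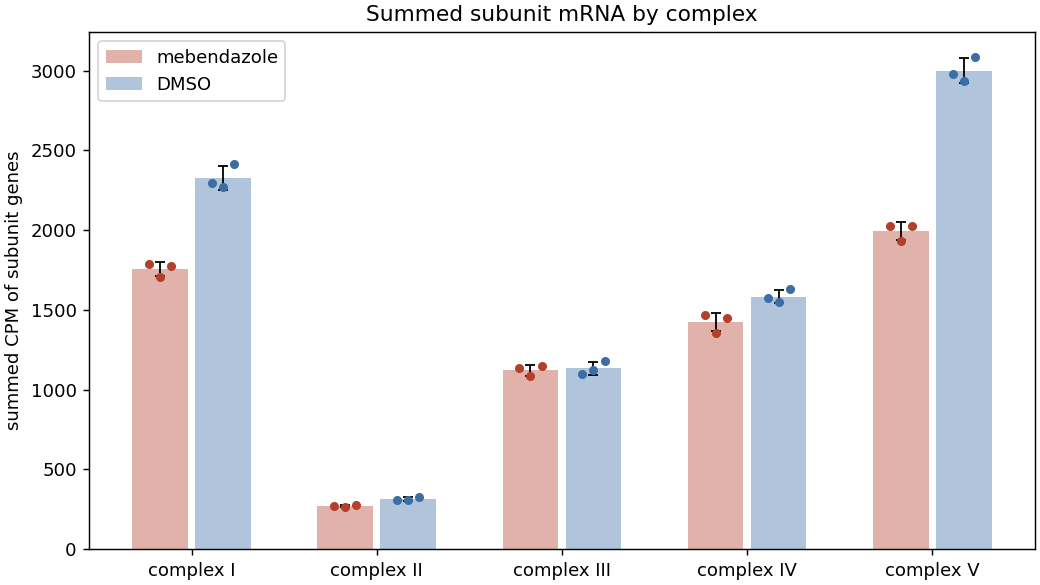
Summed CPM of the subunit genes of each complex, with points for libraries, bars for the mean and whiskers for the SD (n = 3), mebendazole left of DMSO. Complex V shows the widest gap, 1994 against 3001 CPM, and the groups of complex III, summed without CYC1, overlap.

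Promoter sequences of RefSeq (GRCh38.p14; 250 bases before to 50 after the start) were matched for 69 of the 85 subunits, and they are shown for members that moved in opposite directions. A binding motif of NRF1, the letters GCGC and TGCGC with any 1 base between them on either strand, was present in 23.2% of the matched subunit promoters and in 8.58% of 15843 protein-coding promoters. The motif core of ETS factors such as GABP, CCGGAAG, was in 27.5% against 14.2%, and that of YY1, ATGGCGG, in 27.5% against 7.63%. The SP1 motif, GGGCGG, was in 56.5% against 58.5%. Among those lower by over 1.2-fold, 9 of 40 held the NRF1 motif, 12 the ETS motif and 13 the YY1 motif, and among the other 25 tested subunits 6, 7 and 6 did. The difference between these shares was not tested. The YY1 letters were in 13 of 32 complex I promoters, and the NRF1 letters in 0 of 12 of complex IV. A match is a run of letters, not a measured site. In the 200 bases before the start, printed here 5′ to 3′ on the gene's strand with NRF1, ETS and YY1 matches in capitals, SDHA held 4 NRF1 matches and UQCRC1 held 1, both called higher. NDUFA12 held 1 NRF1 match and SDHD 1 match of each kind, and both were called lower, as was ATP5G1, which held none. Over the full windows COX4I1, also called higher, held 0 NRF1 matches. NDUFA3, NDUFA8 and ATP5I, all lower by over 1.2-fold, held 2 each.
SDHA, chr5:218120-218319, plus strand: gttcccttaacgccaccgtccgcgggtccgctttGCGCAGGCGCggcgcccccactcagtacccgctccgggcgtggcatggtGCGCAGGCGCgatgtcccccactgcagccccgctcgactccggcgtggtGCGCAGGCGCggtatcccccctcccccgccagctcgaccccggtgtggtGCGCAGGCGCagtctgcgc
UQCRC1, chr3:48609647-48609846, minus strand: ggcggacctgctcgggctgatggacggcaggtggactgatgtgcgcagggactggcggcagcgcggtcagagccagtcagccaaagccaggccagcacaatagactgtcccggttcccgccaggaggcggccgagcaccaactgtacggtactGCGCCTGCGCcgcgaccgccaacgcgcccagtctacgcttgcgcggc
NDUFA12, chr12:95003698-95003897, minus strand: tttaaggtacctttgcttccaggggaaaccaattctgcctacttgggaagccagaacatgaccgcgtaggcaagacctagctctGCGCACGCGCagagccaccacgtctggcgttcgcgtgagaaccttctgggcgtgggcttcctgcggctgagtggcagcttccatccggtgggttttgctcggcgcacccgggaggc
SDHD, chr11:112086673-112086872, plus strand: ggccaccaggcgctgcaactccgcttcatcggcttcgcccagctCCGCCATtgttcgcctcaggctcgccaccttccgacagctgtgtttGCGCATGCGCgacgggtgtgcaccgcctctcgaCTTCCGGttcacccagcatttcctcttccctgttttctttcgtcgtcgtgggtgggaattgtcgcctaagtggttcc
ATP5G1, chr17:48892587-48892786, plus strand: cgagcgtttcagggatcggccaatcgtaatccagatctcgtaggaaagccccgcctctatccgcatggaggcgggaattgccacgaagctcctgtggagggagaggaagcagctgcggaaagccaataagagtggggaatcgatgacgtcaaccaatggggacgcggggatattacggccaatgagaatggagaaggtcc

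Complex I, the NADH dehydrogenase that starts the chain, had 37 subunits tested, of which 32 were called lower and none higher. The share called lower was 86.5%, where 41.7% of all tested genes were. With library totals all 37 were lower. DESeq2 called none higher, and it did not call NDUFA2 (adjusted p = 0.075) or NDUFA5 (adjusted p = 0.088), which edgeR called lower. The median log2 fold change was -0.49, and 31 subunits had no overlap between groups, all with mebendazole below. These were 83.8% of the complex I subunits, where 41.9% of all tested genes lay below without overlap. The core subunits, which carry the redox groups, had a median of -0.63, with 6 of 7 called lower, and the accessory subunits -0.48, with 26 of 30. By position, the 16 subunits of the matrix arm had a median of -0.56 and the 20 of the membrane arm -0.48, with 14 and 17 called lower.

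NDUFA12, an accessory subunit of the matrix arm, had the largest fall of complex I. It was at 17.7, 19.2 and 22.1 CPM in mebendazole libraries and at 46.1, 43.2 and 46.5 CPM in DMSO libraries, so the groups stood far apart. Its log2 fold change was -1.20 (SE 0.09 over 3 pairs, adjusted p = 1.2e-25, edgeR), a level 2.30-fold lower with mebendazole. NDUFS7, the core subunit that holds the last iron-sulfur cluster before ubiquinone, was at 17.9, 15.0 and 14.5 CPM with mebendazole and at 31.9, 28.9 and 35.8 CPM in DMSO. NDUFS7 had a log2 fold change of -1.02 (SE 0.14, adjusted p = 2.8e-19, edgeR), again with no overlap. NDUFA7, an accessory subunit, averaged 14.8 ± 1.33 CPM with mebendazole and 27.1 ± 1.46 CPM in DMSO (SD, n = 3 each), a log2 fold change of -0.88. 

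NDUFV1, which binds NADH and the flavin that takes its electrons, was at 69.9, 74.7 and 68.5 CPM with mebendazole, against 121, 123 and 128 CPM in DMSO. This gave a log2 fold change of -0.81 (SE 0.05, adjusted p = 9.5e-26, edgeR). NDUFS3, another core subunit, fell by 0.79 on the log2 scale. NDUFS1, the iron-sulfur subunit next to NDUFV1, fell less, to 48.7 ± 1.13 CPM, against 61.5 ± 1.15 CPM in DMSO (log2 fold change -0.33, adjusted p = 3.4e-08, edgeR). The core subunit NDUFV2, which lies beside NDUFV1 and carries an iron-sulfur cluster of its own, was at 75.5, 76.0 and 79.3 CPM with mebendazole and at 82.6, 76.8 and 76.6 CPM in DMSO. NDUFV2 thus overlapped between groups and was not called (log2 fold change -0.03, adjusted p = 0.54, edgeR).

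In the membrane arm, NDUFB8 (-0.71), NDUFB5 (-0.68), NDUFB1 (-0.66) and NDUFB7 (-0.66) had the largest falls on the log2 scale. NDUFAB1, the mitochondrial acyl carrier protein that sits in complex I as a subunit, fell to 43.5 CPM with mebendazole, against 67.9 CPM in DMSO (-0.64). In that arm NDUFB4, NDUFB9 and NDUFB11 did not pass, with log2 fold changes between -0.03 and 0.01. In the matrix arm NDUFA6 (-0.10) did not pass either, beside NDUFV2. NDUFB9, for example, was at 149, 125 and 137 CPM with mebendazole and at 136, 134 and 139 CPM in DMSO, with overlap. With library totals all of these were called lower, NDUFB9 at -0.24.

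Complex II, succinate dehydrogenase, feeds electrons from the citric acid cycle and has no mitochondrially encoded part. Its 4 genes split. SDHA, the flavoprotein that oxidises succinate, was at 72.3, 77.0 and 71.9 CPM with mebendazole and at 57.9, 55.0 and 60.5 CPM in DMSO, so every mebendazole library was higher. The log2 fold change of SDHA was 0.35 (SE 0.07, adjusted p = 4.5e-09, edgeR), and with library totals it was 0.11 (adjusted p = 0.048). SDHA has pseudogenes of near-identical sequence, and reads may be split between copies. SDHAP1 averaged 5.66 against 2.80 CPM, SDHAP2 14.5 against 8.32 CPM and SDHAP3 3.06 against 2.43 CPM (mebendazole against DMSO), and the part of these copies in the SDHA value was not tested. SDHB, the iron-sulfur partner of SDHA, was at 61.2, 59.3 and 63.9 CPM with mebendazole and at 76.0, 76.4 and 82.8 CPM in DMSO. The log2 fold change of SDHB was -0.35 (SE 0.02, adjusted p = 1.3e-09, edgeR). The membrane anchors SDHD (-0.61) and SDHC (-0.18) fell as well. Within a library, where scaling plays no part, the read ratio of SDHA over SDHB was 1.18, 1.30 and 1.13 with mebendazole and 0.761, 0.720 and 0.731 in DMSO.

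Complex III, the cytochrome bc1 complex, passes electrons from ubiquinol to cytochrome c. Of its 9 subunit rows, 5 were called lower and 2 higher, with a median log2 fold change of -0.15. The share called lower was 55.6%, where 41.7% of all tested genes were. UQCR11 (-0.15) is among those called lower by edgeR, but DESeq2 did not call it (adjusted p = 0.116). The share lower by over 1.2-fold was 33.3%, near the 33.0% of all tested genes. UQCRC1, one of the large core proteins that face the matrix, had the largest rise of any subunit. It was at 216, 217 and 224 CPM with mebendazole and at 129, 120 and 129 CPM in DMSO, with no overlap. Its log2 fold change was 0.80 (SE 0.03, adjusted p = 2.1e-29, edgeR), a 1.74-fold rise, and it was 0.55 with library totals. UQCRC2, the other core protein and the partner of UQCRC1 in the complex, was at 122, 127 and 125 CPM with mebendazole and at 182, 188 and 191 CPM in DMSO. The log2 fold change of UQCRC2 was -0.58 (SE 0.02, adjusted p = 3.6e-22, edgeR). The read ratio of UQCRC1 over UQCRC2 was 1.77, 1.71 and 1.80 with mebendazole and 0.709, 0.641 and 0.672 in DMSO, and the groups did not overlap.

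**Figure D3:**
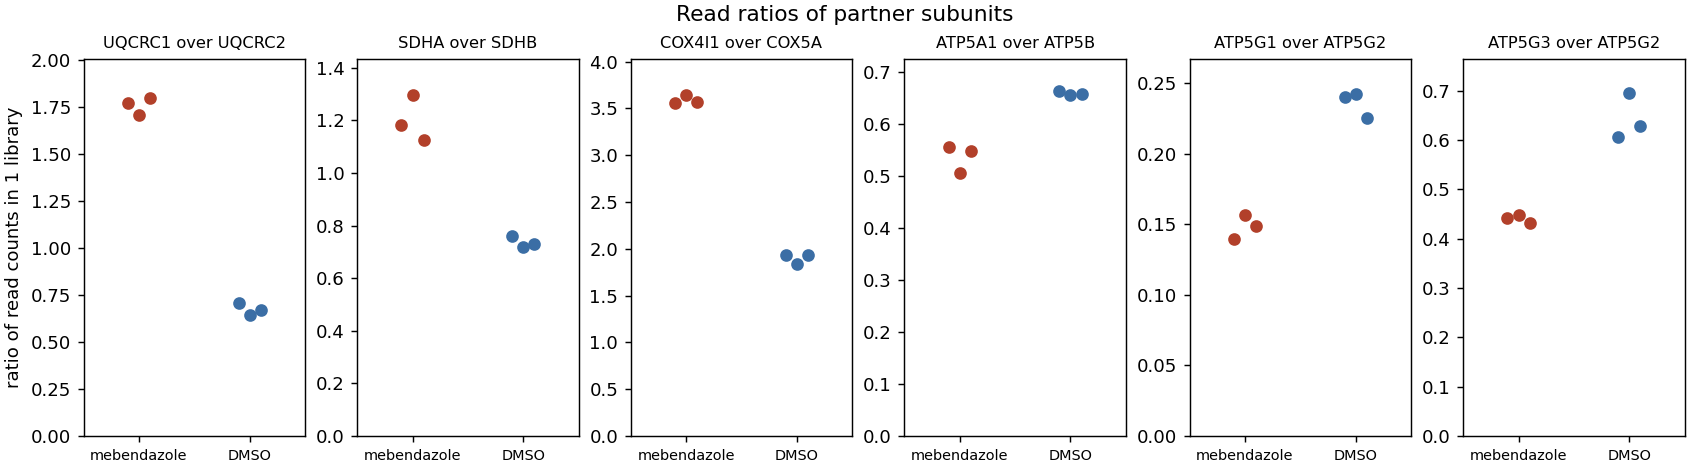
Ratio of read counts of partner subunits within each library, mebendazole left of DMSO, 1 point per library and axes from 0. The ratio of UQCRC1 over UQCRC2 lies at 1.71 to 1.80 with mebendazole and at 0.641 to 0.709 in DMSO, and no panel shows an overlap.

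Among the small subunits of complex III, UQCR10 (-0.59) and UQCRQ (-0.40) fell by over 1.2-fold, and UQCRH, the hinge protein, fell to 216 CPM with mebendazole, against 244 CPM in DMSO (-0.18). UQCRFS1, the Rieske iron-sulfur protein, was at 58.9, 58.8 and 68.8 CPM with mebendazole and at 64.6, 62.6 and 65.4 CPM in DMSO, and was not called (adjusted p = 0.38, edgeR). UQCRFS1 was called lower with library totals (-0.29, adjusted p = 7.0e-07, edgeR). UQCRB, a ubiquinone-binding subunit, was at 349, 310 and 340 CPM with mebendazole and at 277, 309 and 318 CPM in DMSO, with overlap. It was called higher at a log2 fold change of 0.15 (adjusted p = 3.3e-04, edgeR). Neither DESeq2 (adjusted p = 0.13) nor a fit without pair 1 (adjusted p = 0.157) called it. UQCRB was called lower with library totals (-0.10, adjusted p = 0.015, edgeR). UQCRHL is an intronless near-copy of UQCRH, and its 7.19 CPM with mebendazole and 7.12 CPM in DMSO may hold reads of UQCRH.

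Complex IV, cytochrome c oxidase, had 13 subunit rows tested, of which 9 were called lower and 1 higher, with a median log2 fold change of -0.26. The share called lower was 69.2%, where 41.7% of all tested genes were. COX5A was at 94.7, 83.7 and 91.8 CPM with mebendazole and at 136, 140 and 142 CPM in DMSO (log2 fold change -0.63, SE 0.06, adjusted p = 2.5e-21, edgeR). COX5B, which binds zinc on the matrix side, was at 59.0, 60.9 and 64.8 CPM with mebendazole and at 92.9, 87.4 and 90.1 CPM in DMSO (-0.55). Both were separated with no overlap, as were COX7B (-0.40) and COX6B1 (-0.37). These 4 were the complex IV subunits that were lower by over 1.2-fold. Their share, 30.8% of the 13 tested, was near the 33.0% of all tested genes. COX6C, COX7C, NDUFA4, COX7A2L and COX8A fell by less, between 0.29 and 0.12 on the log2 scale. DESeq2 did not call COX7A2L (adjusted p = 0.137) or COX8A (adjusted p = 0.149), and the groups of COX8A overlapped. NDUFA4 carries a complex I name but is a subunit of complex IV, and COX7A2L joins complexes III and IV in supercomplexes.

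COX4I1, the subunit 4 isoform of most tissues and a site of regulation by ATP, went the other way. It was at 337, 305 and 328 CPM with mebendazole and at 263, 257 and 276 CPM in DMSO, every mebendazole library above every DMSO library. Its log2 fold change was 0.28 (SE 0.04, adjusted p = 2.0e-11, edgeR), but it was 0.04 (adjusted p = 0.28) with library totals, so it was not called under that scaling, nor against 1.2-fold. Relative to COX5A the change did not depend on scaling, as the read ratio of COX4I1 over COX5A was 3.56, 3.64 and 3.57 with mebendazole and 1.93, 1.84 and 1.94 in DMSO. COX7A2 and COX6A1 overlapped between groups and were not called, at log2 fold changes of 0.03 and -0.05. Both were called lower with library totals, at -0.22 and -0.29 (adjusted p = 5.6e-07 and 1.6e-06, edgeR).

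Of 7 tissue isoforms of complex IV, 6 had too few reads to be tested. COX4I2, COX6A2 and COX7B2 had no read in any library, which at 3 counts per library allows up to 0.236 CPM with mebendazole and up to 0.203 CPM in DMSO, for counting error only. COX7A1 had 5 reads in mebendazole libraries and 2 in DMSO libraries, COX6B2 had 8 with mebendazole and 6 in DMSO, and COX8C had 5 in each group. NDUFA4L2, a hypoxia-induced relative of NDUFA4, was at 4.53, 4.75 and 4.32 CPM with mebendazole and at 6.17, 4.40 and 5.29 CPM in DMSO. It overlapped between groups and was not called (adjusted p = 0.16, edgeR), though with library totals it was called lower (-0.47, adjusted p = 0.0039).

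Complex V, ATP synthase, had 14 of 15 tested subunits called lower, none higher, 12 lower by over 1.2-fold and a median log2 fold change of -0.55. The shares were 93.3% lower and 80% lower by over 1.2-fold, against 41.7% and 33.0% of all tested genes. The largest falls were those of ATP5G1 and ATP5G3, genes of the ring of c subunits that turns with proton flow. The mature protein of the ring is encoded by 3 genes, ATP5G1, ATP5G2 and ATP5G3, which differ in their import sequences. ATP5G1 was at 27.8, 28.8 and 30.2 CPM with mebendazole and at 75.7, 69.6 and 72.1 CPM in DMSO. Its log2 fold change was -1.33 (SE 0.06, adjusted p = 8.5e-32, edgeR), a level 2.51-fold lower and the largest fall of any tested subunit.

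ATP5G3 was at 87.9, 82.5 and 87.4 CPM with mebendazole and at 191, 199 and 201 CPM in DMSO (log2 fold change -1.20, SE 0.04, adjusted p = 2.6e-37, edgeR). ATP5G2 was at 199, 184 and 202 CPM with mebendazole and at 315, 287 and 320 CPM in DMSO (log2 fold change -0.65, SE 0.01, adjusted p = 5.1e-27, edgeR). All 3 genes were separated with no overlap. The fall of ATP5G2 was the smallest of the 3, and it was less than that of ATP5F1 (-0.80) or ATP5A1 (-0.75) outside the ring. The read ratio of ATP5G1 over ATP5G2 was 0.139, 0.157 and 0.149 with mebendazole and 0.240, 0.242 and 0.225 in DMSO, and that of ATP5G3 over ATP5G2 was 0.441, 0.448 and 0.432 with mebendazole and 0.607, 0.694 and 0.629 in DMSO. Reads of ATP5G1 and ATP5G3 were thus fewer relative to ATP5G2 in every mebendazole library.

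**Figure D4:**
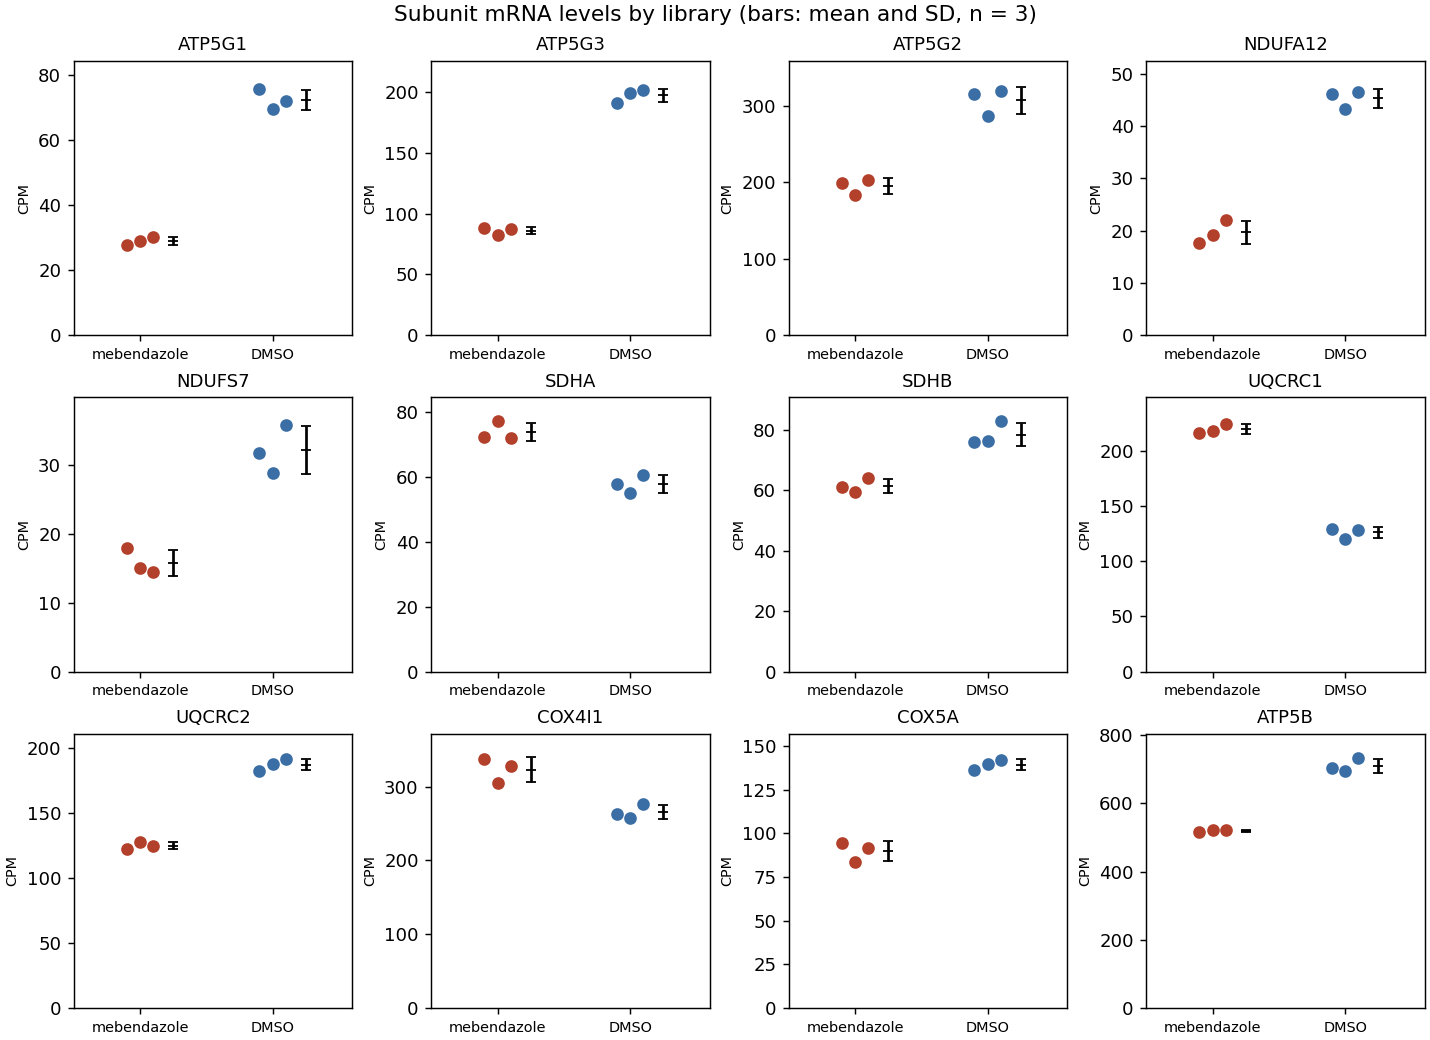
CPM of 12 subunit genes by library, mebendazole left of DMSO, with points for libraries, the mean and the SD (n = 3), and axes from 0. SDHA, UQCRC1 and COX4I1 are higher with mebendazole, and the other 9 genes are lower, with no overlap in any panel.

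In the catalytic head of ATP synthase, ATP5A1, the alpha subunit, was at 288, 264 and 287 CPM with mebendazole and at 466, 456 and 482 CPM in DMSO (log2 fold change -0.75, SE 0.03, adjusted p = 4.6e-31, edgeR). ATP5B, the beta subunit that holds the catalytic sites, was at 517, 521 and 522 CPM with mebendazole and at 703, 695 and 733 CPM in DMSO (-0.45, SE 0.02, adjusted p = 3.5e-21, edgeR). Both fell in every pair, ATP5A1 further, and their read ratio was 0.556, 0.506 and 0.549 with mebendazole and 0.664, 0.657 and 0.658 in DMSO. ATP5C1, the gamma shaft, fell to 73.3 ± 1.62 CPM, against 107 ± 1.64 CPM in DMSO (SD, n = 3 each; -0.55). ATP5D (-0.32) and ATP5E (-0.14), the delta and epsilon subunits, fell less, and ATP5E overlapped between groups and was not called by DESeq2 (adjusted p = 0.161). In the stalk that holds the head still, all 4 genes were lower by over 1.2-fold, led by ATP5F1 at 175 CPM with mebendazole, against 306 CPM in DMSO (-0.80), with ATP5H (-0.66), ATP5J (-0.55) and ATP5O (-0.52). Of the small membrane subunits, ATP5J2 (-0.58) and ATP5I (-0.39) fell. ATP5L was at 136, 131 and 142 CPM with mebendazole and at 141, 138 and 147 CPM in DMSO, and did not pass (adjusted p = 0.15, edgeR). It was called lower with library totals (-0.30, adjusted p = 4.2e-10, edgeR). ATP5L2, a paralogue of ATP5L, had 6 reads with mebendazole and 2 in DMSO.

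Of the rows that matched by symbol only, ATP5S, which encodes a mitochondrial coupling factor, was at 2.48, 3.68 and 3.46 CPM with mebendazole and at 11.1, 10.3 and 9.52 CPM in DMSO. Its log2 fold change was -1.69 (adjusted p = 3.9e-17, edgeR), beyond that of any subunit. NDUFB2-AS1, antisense to NDUFB2, had 1.47 CPM with mebendazole and 2.00 CPM in DMSO and was not called. The kit does not mark strand, so reads of NDUFB2 and its antisense partner cannot be told apart.

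Other genes of the pathway were mostly lower too. Assembly factors, which build the complexes but are not part of them, were called lower in 37 of 51 and higher in 8. Of all tested genes, 41.7% were called lower and 40.6% higher. The median log2 fold change of the list was -0.78. The list also holds PET112, which acts in mitochondrial tRNA charging, and LRPPRC and TACO1, which do not build a complex either. LRPPRC, which stabilises mitochondrial mRNAs, fell to 235 ± 4.31 CPM with mebendazole, against 396 ± 3.37 CPM in DMSO (-0.75, adjusted p = 6.9e-31, edgeR). MNF1, an assembly factor of complex III, fell to 23.4 ± 1.92 CPM, against 58.2 ± 2.06 CPM in DMSO (-1.32). TTC19, another complex III factor, rose to 76.7 ± 0.243 CPM, against 34.7 ± 1.22 CPM in DMSO (1.15, adjusted p = 6.3e-30, edgeR). CMC2 (1.17), COX19 (0.52) and COX17 (0.42), small proteins of complex IV assembly chosen after their values were seen, were also called higher, and their log2 fold changes stayed positive with library totals. Most complex IV factors of the list were called lower instead, for example CMC1 (-1.48), COX20 (-1.33), COA3 (-1.09), COX18 (-1.07) and COA6 (-0.79).

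Electron carriers and subunits that the symbol rule does not reach were called lower in 8 of 8, where 41.7% of all tested genes were. Their median was -0.43, and 6 of 8 were called lower both with DESeq2 and without pair 2. CYC1, the cytochrome c1 of complex III, was at 126, 119 and 122 CPM with mebendazole and at 193, 177 and 193 CPM in DMSO (-0.61, adjusted p = 4.2e-23, edgeR). ETFA, which brings electrons from fatty acid oxidation, fell by 0.75 on the log2 scale, and ATPIF1, an inhibitor of ATP synthase running in reverse, by 0.77. CYCS, cytochrome c, fell by little, to 212 CPM, against 228 CPM in DMSO.

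Regulators and factors of mitochondrial DNA expression were called lower in 15 of 21 and higher in 5, with a median of -0.40. Of all tested genes, 41.7% were called lower and 40.6% higher. PPARGC1B, a coactivator of the PGC-1 family, fell to 7.51 ± 0.476 CPM, against 23.8 ± 2.59 CPM in DMSO (-1.66, adjusted p = 2.3e-25, edgeR). PPARGC1A, the founding member of that family, had 15, 6 and 16 reads with mebendazole and 2, 6 and 2 in DMSO, too few to be tested. SLIRP, the partner of LRPPRC, fell to 18.9 CPM, against 43.0 CPM in DMSO (-1.18). GABPB1, a subunit of GABP, rose to 81.8 ± 1.23 CPM, against 42.2 ± 1.80 CPM in DMSO (0.95, adjusted p = 1.4e-26, edgeR). GABPB2, which encodes another beta subunit of GABP, fell to 8.09 ± 0.211 CPM, against 12.4 ± 0.700 CPM in DMSO (-0.61, adjusted p = 5.0e-07, edgeR). GABPA, the alpha subunit, fell by 0.21 on the log2 scale. NRF1 itself averaged 33.4 ± 1.15 CPM with mebendazole and 24.6 ± 1.93 CPM in DMSO (0.44, adjusted p = 1.8e-08, edgeR), and TFAM, which packs and transcribes mitochondrial DNA, fell by 0.68. YY1 averaged 113 ± 2.52 CPM with mebendazole and 88.1 ± 1.17 CPM in DMSO (0.36, adjusted p = 1.3e-11, edgeR). GABPA, GABPB2, NRF1, YY1, TFAM and PPARGC1A were chosen after their values were seen.

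**Figure D5:**
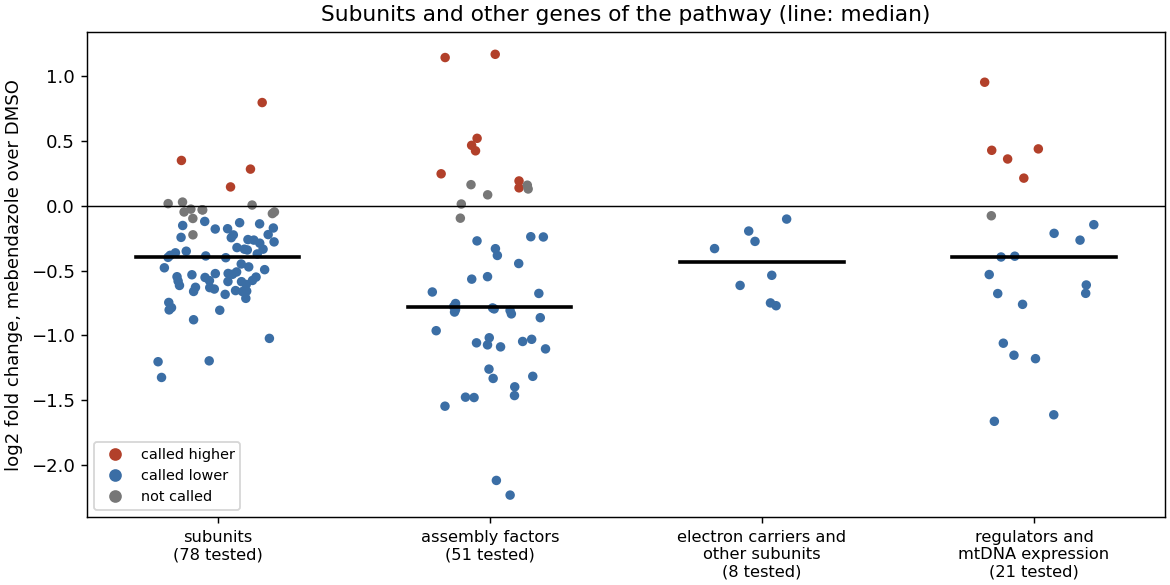
Log2 fold change (mebendazole over DMSO) of the 78 tested subunits and of 3 lists of other genes of the pathway, 1 point per gene with a line at the median, coloured by call. The medians are -0.39 for subunits, -0.78 for assembly factors, -0.43 for carriers and other subunits, and -0.40 for regulators.

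All calls rest on 3 libraries per group. The variance of each gene was drawn strongly toward that of all genes (prior degrees of freedom 61.3, residual 2), which sets how small the p-values are.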

How the data were processed

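The authors deposited whole-number read counts for each gene symbol in each library. STAR, HTSeq, bedtools, DESeq2 and build hg19 are listed, with no role or version, per the submitters' processing notes. Libraries were made with TruSeq RNA v2, per the labels' protocols. Neither annotation nor strand setting is given in the sources used, and the table had 0 columns of no sample.

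The tests were run with edgeR 4.0.16 under R 4.3.3. After filterByExpr 13591 genes were tested with TMM scaling and the quasi-likelihood F test (two-sided), with the pair as a term because the labels state pairs. glmTreat on the same fit tested against 1.2-fold. SE is that of log2 CPM differences over 3 pairs (pseudocount 0.5). Alternatives used library totals, DESeq2 size factors, DESeq2 1.42.0, other filters, no pair term and each pair left out. The test was checked on simulated data in which few genes changed, evenly up and down, with no pair effect. That check does not cover a table where 82.3% of genes were called. Within groups, the chi-square per degree of freedom between libraries was 1.45 to 3.27, so none was counted as a repeat deposit.

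Members and lists were chosen with earlier results of these data known. Named genes were, per complex, the 2 largest rises and 2 largest falls among called members, any called member at a log2 size of 1 or more, 13 central subunits, the tissue isoforms and 3 genes per list by p. Other members are named as examples, chosen after their values were seen. The spans of 24 subunit genes overlap another counted gene in RefSeq, and such reads may be shared or lost. Values of 1 subunit and 1 marker are not reported here, though both enter the counts.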

Additional observations from a re-analysis of the deposited data

How the results depend on the processing

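Of 31 named genes, 27 kept their sign and call under every alternative that tested them. UQCRB reversed with library totals (-0.098). With that scaling 2 subunits were called higher (4 with TMM), 1 was higher by over 1.2-fold (2 with TMM) and 5 assembly factors were higher (8 with TMM). The medians were then -0.64 for all subunits and -0.74, -0.51, -0.40, -0.51 and -0.80 for complexes I to V, by the shift of that scaling, and the ratios of summed CPM were 0.663 for all subunits and 0.637, 0.724, 0.835, 0.759 and 0.561. With DESeq2 size factors the medians of complexes I and II were -0.47 and -0.24, and with DESeq2 that of complex II was -0.24. DESeq2 called 57 subunits, 33 assembly factors and 12 regulators lower (63, 37 and 15 with edgeR). With no filter the medians of complexes II and IV were -0.28 and -0.19. When a mean of at least 10 CPM was required, 1 subunit was higher by over 1.2-fold, and complexes I, II and III had medians of -0.53, -0.30 and -0.20. The cause of these shifts was not tested. Without 1 pair, 59 to 64 subunits were called lower, 3 to 4 higher, 42 to 48 lower by over 1.2-fold, and the medians ran from -0.52 to -0.46 in complex I and from -0.27 to -0.24 in complex II. With no replicate block 63 subunits were called lower and 4 higher. Deviations of libraries that share a pair number correlated at 0.00, 0.08 and 0.02, and 3 of 6 libraries correlated best with their own number.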
